A study of Mus musculus with 4 samples.

Results

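The homeobox and Zic transcription factors described here are all genes of the deposited brain spatial count table whose symbol is Lhx, Dlx, Otx, Emx, Gbx, Irx or Zic followed by a number only, or Nkx or Pou followed by a digit, with the family of Six3 taken by the same number rule. The rule uses names and no measured value, and it finds 67 of the 19465 genes in the table. They are 8 Lhx genes, 6 Dlx, 6 of the Six3 family, 2 Otx, 2 Emx, 2 Gbx, 6 Irx, 5 Zic, 14 Nkx and 16 Pou genes. The symbol rule also takes in Pou2af1, a coactivator of POU factors with no homeodomain of its own. The study placed coronal brain sections of 4 untreated mice, 2 wild-type and 2 heterozygous for Celsr3, on the 10X Visium CytAssist assay, version 2, for formalin-fixed and paraffin-embedded tissue. Celsr3 encodes an adhesion receptor of the cadherin family, and the brains were trimmed so that the sections would hold the striatum. The strain, age and sex of the mice and the nature of the Celsr3 allele are not given in the sources used here. The assay counts gene probes on a grid of barcoded spots, and a spot can hold several cells.

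Homeobox genes encode transcription factors with a DNA-binding homeodomain, and Zic genes encode zinc finger factors related to the Gli proteins. In the embryonic forebrain they are switched on in adjoining territories: Emx genes in the dorsal telencephalon, Dlx genes in the ganglionic eminences, Nkx2-1 in the medial ganglionic eminence and hypothalamus, Gbx2 in the thalamus and Zic genes along the midline. Many stay on in the mature cells of those territories, where they help to hold cell identity. LIM homeodomain proteins (Lhx) act with the cofactors Ldb1 and Ldb2, the proteins of Six3 and its relatives act with Eya and Dach proteins, and many homeodomain proteins bind DNA next to TALE proteins such as Meis and Pbx.

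For 47 of the 67 genes, the 250 bases before the gene start were read from RefSeq (build GRCm38.p6). These 4 are printed because Gbx2 and Otx2 had the sharpest area patterns below and because Dlx2 and Zic5 each ran together with a neighbouring family member. Capitals mark a match to one of 4 motifs searched on both strands. The first is TAATTA, a homeodomain core that reads the same on both strands. The Otx type is TAATCC, which shares its first 4 letters with the core. The Nkx2 type is CAAGTG. The octamer of POU factors is ATGCAAAT.
Gbx2, chr1:89931177-89931426, minus strand: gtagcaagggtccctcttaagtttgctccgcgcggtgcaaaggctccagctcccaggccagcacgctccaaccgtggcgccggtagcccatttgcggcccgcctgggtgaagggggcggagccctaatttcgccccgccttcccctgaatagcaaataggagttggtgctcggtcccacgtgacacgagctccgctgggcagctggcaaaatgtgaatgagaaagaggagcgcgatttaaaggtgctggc
Otx2, chr14:48667645-48667894, minus strand: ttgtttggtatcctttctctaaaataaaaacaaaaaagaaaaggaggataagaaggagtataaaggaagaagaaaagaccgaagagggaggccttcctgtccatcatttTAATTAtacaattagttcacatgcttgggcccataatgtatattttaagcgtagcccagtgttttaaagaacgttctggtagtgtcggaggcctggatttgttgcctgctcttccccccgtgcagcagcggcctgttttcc
Dlx2, chr2:71546755-71547004, minus strand: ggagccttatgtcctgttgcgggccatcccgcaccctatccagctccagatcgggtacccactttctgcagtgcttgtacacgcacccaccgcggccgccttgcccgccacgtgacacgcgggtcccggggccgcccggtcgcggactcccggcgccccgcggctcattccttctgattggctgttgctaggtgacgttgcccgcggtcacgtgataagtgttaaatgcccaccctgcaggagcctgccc
Zic5, chr14:122465659-122465908, minus strand: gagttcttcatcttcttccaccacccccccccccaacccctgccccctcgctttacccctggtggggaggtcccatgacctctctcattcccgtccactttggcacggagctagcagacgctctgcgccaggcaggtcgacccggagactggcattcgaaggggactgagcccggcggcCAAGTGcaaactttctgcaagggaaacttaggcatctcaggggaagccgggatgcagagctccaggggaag
The motif TAATTA was in 1 of the 47 windows, that of Otx2, against 4.9% of all 27025 windows of this length. CAAGTG was in 4 of 47, those of Nkx1-2, Nkx2-2, Zic4 and Zic5, against 11.6% of all windows. TAATCC and ATGCAAAT were in 0 of 47, against 6.38% and 1.61% of all windows. The windows of these genes had a median GC content of 62.8%, against 52.0% over all windows. Such matches are descriptions of the letters in the window and not binding sites.

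The spot barcodes carry 1 of 4 endings, which split the spots into barcode sets 1 to 4. The labels assign 0 of the 4 endings to an animal or genotype, so genotypes were not compared, and values are given per set with no SD and no p-value. The sets held 2808 to 3445 spots and 90752475 to 174761560 counts, and the median count per spot was 52481, 38181.5, 44966 and 26444.5 in sets 1 to 4. Celsr3 itself stood at 31.7, 46.8, 26.0 and 47.2 counts per 1000000 counts (CPM) in sets 1 to 4. The sets shared 1613 of 4744 barcodes, as sections read on the same barcode grid do. Genes for olfactory receptors (Olfr, 970 genes), which serve as a gauge of probe background, averaged 0.123, 0.336, 0.191 and 0.498 CPM in sets 1 to 4. Intervals in brackets are exact 95% intervals for counting error only.

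Spots were clustered without the homeobox and Zic genes, and clusters were joined into 12 areas by marker genes outside the list. The areas held 10884 of 12601 spots, and 4 clusters with 1717 spots were left unnamed and keep their number. Among these, clusters 13 and 14 carried all 8 white matter markers at 2-fold or more, so keeping them apart from white matter was a choice. In 7 of the 12 areas every marker was at least 2-fold higher than in the other spots of each set: the striatal, basal forebrain cholinergic, hypothalamic, thalamic, white matter, choroid plexus and meningeal areas. The others had 5 of 6 markers (upper cortical), 3 of 5 (deep cortical), 3 of 4 (claustral), 4 of 5 (lateral septal) and 6 of 8 (ventricle lining). Thalamic spots numbered 148 in set 1 and 297 in set 4 but 0 and 3 in sets 2 and 3. Lateral septal spots numbered 134 in set 2 and 249 in set 3 but 25 and 0 in sets 1 and 4, so the areas were not equally represented in the sets. Further, 6 clusters in 4 areas came almost wholly from 1 set: 9 (striatal) and 20 (hypothalamic) from set 2, 16 (deep cortical), 17 (upper cortical) and 18 (striatal) from set 4 and 24 (upper cortical) from set 1.

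A gene is called higher or lower in an area where log2(CPM + 1) differed by at least 1, a 2-fold change, between the area and all other spots of the same set, in every set with at least 30 spots of the area and in at least 2 sets. Genes were compared where their whole-section level averaged 1 CPM or more, 13773 in all, and 42 of the 67 homeobox and Zic genes passed this filter. The mean is over the whole section, so a gene restricted to a small area could miss it, and one near 1 CPM could pass through the area where it is high. The 25 genes below it included Lhx3, Lhx4, Dlx3, Dlx4, Six2, Six4, Irx3, Irx4, Irx6, Nkx1-1, Nkx1-2, Nkx2-3, Nkx2-4, Nkx2-5, Nkx2-6, Nkx3-2, Nkx6-1, Nkx6-3, Pou1f1, Pou2af1, Pou2f3, Pou4f2, Pou4f3 and Pou5f1. Their median level was 0.206, 0.556, 0.23 and 0.76 CPM in sets 1 to 4. Of the 25, 24 were highest in set 4, and 16 had the same order of sets as the olfactory receptor genes, 4, 2, 3, 1 from high to low. Some still stood above background in an area. Six2 had a median of 10.8 CPM in the meningeal area, where olfactory receptor genes averaged 0.143 to 0.791 CPM. Dlx4 had a median of 4.27 CPM in the ventricle lining, where those genes averaged 0.215 to 0.847 CPM. Probes differ between genes, so CPM values compare 1 gene between areas and not different genes. In sums over spots, fewer cells of a type and less RNA per cell cannot be told apart.

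Of the 42 genes compared, 31 were higher in at least 1 named area (73.8%), against 26.8% of all genes tested, and 30 were lower in at least 1, against 25.3% of all genes. The 6 genes called in neither direction in a named area included Nkx2-9, Pou2f1, Pou4f1 and Pou5f2. The heat map of levels shows that areas differed in which families they carried: Emx1 in the cortical areas, Dlx5 and Dlx6 in the striatal area, Zic genes in the lateral septal, thalamic and ventricle lining areas, and low Dlx levels in the thalamic area.

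**Figure D1:**
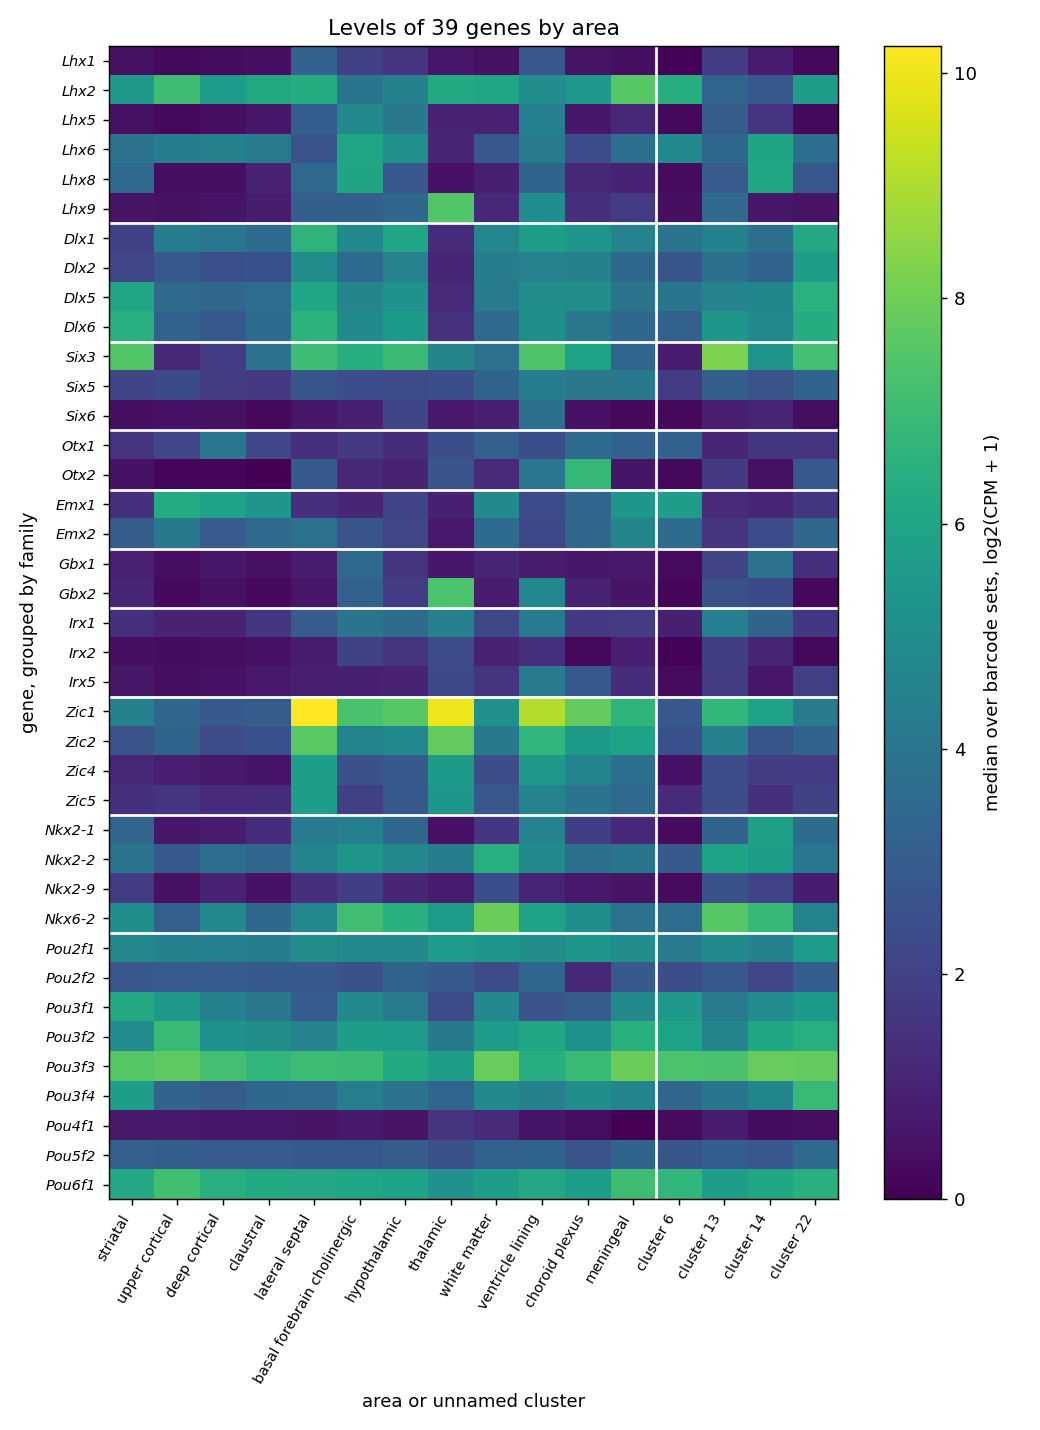
Heat map of 39 of the 42 homeobox and Zic genes that averaged 1 CPM or more (rows, grouped by family) in 12 areas and 4 unnamed clusters (columns, split by a white line). Colour is the median over barcode sets with at least 30 spots, as log2(CPM + 1), and is to be read along a row. Zic1 is brightest in the lateral septal (1210 CPM) and thalamic (997 CPM) areas.

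Ventricle lining spots had 11 higher genes, among them Lhx1, Lhx9, Six5, Six6, Otx2, Irx5, Zic1, Zic2, Zic4 and Zic5, where 6.23% of all genes were called higher. Emx1 and Pou3f1 were called lower there, where 2.88% of all genes were. The median difference from the other spots was 0.48 on the log2 scale over the 42 genes and 0.13 over all genes. These spots also carried all 8 hypothalamic markers at 2-fold or more in every set, and the part of the hypothalamic signal in the result was not tested. With no centring of the clustering values, 6 genes were higher and 1 was lower.

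The thalamic area, seen in sets 1 and 4, had 9 higher genes, among them Lhx9, Gbx2, Irx1, Irx2, Zic1, Zic2, Zic4 and Zic5, beside 2.66% of all genes. A further 17 were lower, beside 5.09% of all genes: Lhx5, Lhx6, Lhx8, Dlx1, Dlx2, Dlx5, Dlx6, Six3, Emx1, Emx2, Gbx1, Nkx2-1, Pou3f1, Pou3f2, Pou3f3, Pou3f4 and Pou6f1. The median difference was -0.46 over the 42 genes and -0.05 over all genes. Leaving out set 1 or set 4 leaves no thalamic value, since the call needs 2 sets.

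The lateral septal area, seen in sets 2 and 3, had 8 higher genes, among them Dlx1, Dlx2, Dlx6, Zic1, Zic2, Zic4 and Zic5, where 1.67% of all genes were higher. Lhx6, Otx1, Emx1, Pou3f1 and Pou3f2 were lower, where 3.49% of all genes were. Median differences were 0.19 over the 42 genes and 0.05 over all genes. When each spot instead took the area of its highest marker score, 48 spots of set 4 joined this area, and 0 homeobox and Zic genes were higher and 0 were lower in all 3 sets. The median difference of Zic1 was then 4.21, against 4.38 with clusters. The septal and thalamic marker lists share Prkcd, and its part in this change was not tested.

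The basal forebrain cholinergic area had 6 higher genes: Lhx5, Lhx8, Gbx1, Irx1, Nkx2-1 and Nkx6-2, where 0.762% of all genes were higher. Lhx2 and Emx1 were lower, where 3.04% of all genes were. The median difference was -0.11 over the 42 genes and 0.04 over all genes. The call of Irx1 was lost at both other clustering resolutions, with marker scores, with a minimum of 2000 counts per spot, with a pseudocount of 5 CPM and without any 1 of the sets, at a median difference of 0.92 to 1.67 against 1.61. In the hypothalamic area Lhx5, Dlx1 and Dlx2 were higher, where 1.77% of all genes were, and Lhx2 and Emx1 were lower, where 2.28% were. The medians there were 0.12 over the 42 genes and 0.04 over all genes. Clustering without set 1 gave 5 higher and 5 lower genes in the hypothalamic area, and clustering without set 4 gave 6 lower.

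In the striatal area Dlx5, Dlx6, Pou3f1 and Pou3f4 were higher, where 2.79% of all genes were. A further 10 genes were lower, where 6.24% of all genes were, among them Lhx5, Lhx9, Dlx1, Dlx2, Emx1, Zic1, Zic2, Zic4 and Zic5. The median difference was -0.57 over the 42 genes and -0.10 over all genes.

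In the upper cortical area Lhx2, Emx1 and Pou3f2 were higher, where 1.35% of all genes were, and 14 were lower, where 4.47% were. In the deep cortical area Otx1 and Emx1 were higher, where 0.951% of all genes were, and again 14 were lower, where 3.3% were. Lower in both were Lhx5, Lhx8, Lhx9, Dlx5, Dlx6, Six3, Irx1, Zic1, Zic2, Zic4, Zic5 and Nkx2-1. Medians were -0.81 in the upper and -0.85 in the deep cortical area, against -0.12 and -0.13 over all genes. Clustering without set 2 or without set 3 left 0 higher genes in the deep cortical area. Cluster 6, led by Fezf2 and Adra1d, had 0 higher genes, where 0.61% of all genes were higher, and 15 lower, where 3.75% were. The claustral area likewise had 0 higher genes, where 0.428% of all genes were, and 11 lower, where 2.42% were, among them Lhx5, Lhx8, Dlx6, Six3, Otx2, Zic1, Zic2, Zic4, Nkx2-1 and Nkx6-2.

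White matter spots had Nkx2-2 and Nkx6-2 higher, where 4.33% of all genes were. Another 7 genes were called lower there (Lhx5, Lhx6, Lhx8, Dlx6, Six3, Zic1 and Nkx2-1), where 4.55% of all genes were, but this count was 0 to 2 with other clustering settings or marker scores, and 2, 1 and 1 without set 2, 3 or 4. The choroid plexus area, seen in sets 1 and 3, had 8 higher genes, among them Dlx1, Dlx2, Six5, Otx2, Irx5, Zic2 and Zic4, where 11.2% of all genes were higher. Its 7 lower genes stood beside 16.0% of all genes, and clustering without set 1, 2, 3 or 4 gave 2, 3, 2 and 2. Choroid plexus spots also carried 7 of 8 ventricle lining markers and 5 of 7 meningeal markers at 2-fold or more, and the part of those tissues was not tested. The meningeal area had Lhx2 and Emx2 higher, where 2.61% of all genes were, and Lhx8, Dlx6, Six3, Nkx2-1 and Nkx6-2 lower, where 1.42% were.

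The unnamed clusters 13 and 14 carried all 8 white matter markers at 2-fold or more, beside leading genes of other kinds. In cluster 13, 3 of these markers were themselves among the leading genes. Joining cluster 13 to white matter, chosen after seeing the data, left 1 gene called lower in white matter instead of 7. Cluster 13, led by Pvalb, Ubash3b and Lancl3, had Irx1, Nkx2-2, Nkx2-9 and Nkx6-2 higher, where 1.6% of all genes were, and Lhx2 and Emx1 lower, where 3.2% were. Cluster 14, led by Spp1, Etnppl and Padi2, had Lhx6, Lhx8, Gbx1, Nkx2-1, Nkx2-2 and Nkx6-2 higher, where 2.47% of all genes were. Its 7 lower genes included Lhx2, Lhx9, Emx1, Zic1, Zic2 and Zic5, where 4.63% of all genes were lower. Cluster 22, led by histone genes and Crym and with 4 of 10 striatal markers at 2-fold or more in every set, had Dlx5 and Pou3f4 higher, where 1.46% of all genes were, and Lhx5, Emx1 and Zic1 lower, where 3.06% were.

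**Figure D2:**
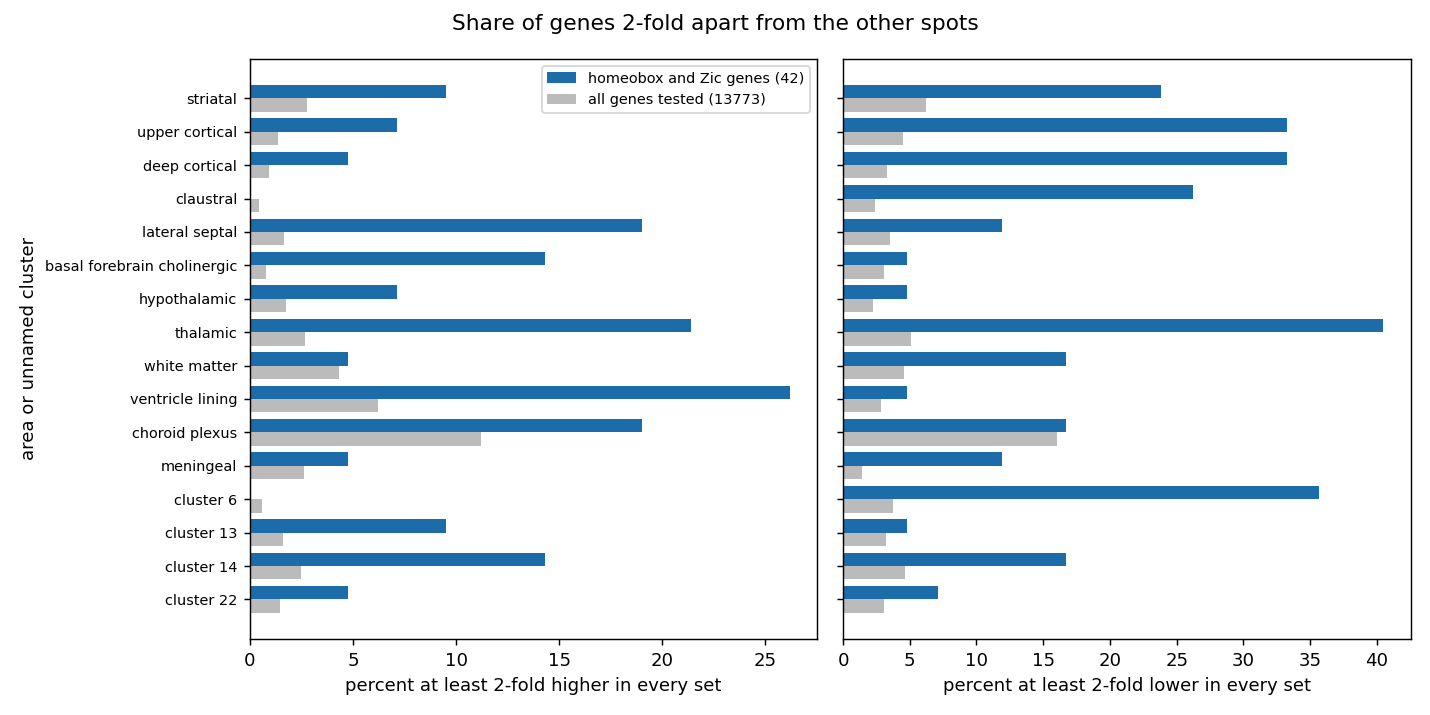
Bars give the percent of genes at least 2-fold higher (left) or lower (right) than the other spots in every barcode set with at least 30 spots, for the 42 homeobox and Zic genes (blue) and all 13773 genes tested (grey), by area or cluster. The share of homeobox and Zic genes called lower is 33.3% in both cortical areas and 40.5% in the thalamic area.

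Zic1, Zic2, Zic4 and Zic5, which encode zinc finger factors of midline and dorsal brain development, took much the same areas as each other. In the lateral septal area Zic1 stood at 1345 CPM in set 2 and 1074 CPM in set 3, against 63.3 and 51.2 CPM in the other spots. These are ratios of 21.2 (20.5 to 22.0) and 21.0 (20.4 to 21.6), so the counting intervals of the sets overlap. In the thalamic area Zic1 stood at 789 CPM in set 1 and 1205 CPM in set 4, ratios of 18.6 and 12.8.

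Zic2, Zic4 and Zic5 were also called higher in the lateral septal, thalamic and ventricle lining areas. In the lateral septal area the ratios in sets 2 and 3 were 17.6 and 12.1 for Zic2, 19.0 and 16.7 for Zic4, and 20.6 and 14.2 for Zic5. Thalamic ratios in sets 1 and 4 were 10.8 and 8.75 for Zic2, 11.7 and 10.1 for Zic4, and 11.2 and 8.49 for Zic5. Each gene had its lower thalamic ratio in set 4. Ventricle lining ratios of Zic1, Zic2, Zic4 and Zic5 ran from 2.63 (Zic1 in set 1) to 8.1 (Zic4 in set 2).

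Zic1 was low in the cortical and striatal areas. Zic1 stood at 7.17, 11.1, 9.47 and 9.29 CPM in the upper cortical area of sets 1 to 4, where the other spots held 109 to 261 CPM. In the striatal area it stood at 16.1, 30.7, 21.6 and 22.2 CPM. The striatal levels were above the cortical levels in each set. In the basal forebrain cholinergic area Zic1 stood between, at 86.9, 206, 104 and 207 CPM, with ratios of 0.885, 1.73, 0.859 and 0.909 to the other spots, so only set 2 was above its own surroundings.

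Gbx2, a homeobox gene needed for thalamic development, was close to restricted to the thalamic area. It stood at 138 CPM in set 1 and 183 CPM in set 4, against 1.87 and 3.31 CPM in the other spots, ratios of 73.9 (65.4 to 83.8) and 55.2 (48.5 to 63.0). Its next area was the ventricle lining, where the level differed widely between sets: 48.7 and 43.4 CPM in sets 1 and 4, which hold thalamic spots, against 4.07 and 9.37 CPM in sets 2 and 3. In the basal forebrain cholinergic area, in contrast, Gbx2 was highest in set 2, at 21.0 CPM against 4.56, 4.39 and 11.6 CPM in sets 1, 3 and 4. Over whole sections Gbx2 was lowest in set 3 (0.884 CPM) and highest in set 4 (24.5 CPM).

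Gbx1, its paralog, took another area. It stood at 4.45, 14.7, 6.48 and 16.7 CPM in the basal forebrain cholinergic area of sets 1 to 4, against 0.754, 0.951, 0.935 and 2.45 CPM elsewhere. The 4 ratios ran from 5.9 to 15.4, with set 2 the highest. In cluster 14 it stood at 12.3, 13.7 and 20.4 CPM in sets 1, 3 and 4. In the thalamic area it had 0 counts in set 1, which allows up to 0.286 CPM, and stood at 1.12 CPM in set 4.

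Among the LIM homeobox genes, each of which marks a different set of neurons, Lhx9 followed the thalamus. It stood at 184 CPM in set 1 and 168 CPM in set 4 in the thalamic area, against 3.99 and 5.55 CPM elsewhere, ratios of 46.2 (42.3 to 50.5) and 30.3 (27.3 to 33.7). In the ventricle lining it stood at 45.6, 13.2, 18.2 and 55.4 CPM in sets 1 to 4, higher in the 2 sets with thalamic spots, as for Gbx2.

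Lhx8, a factor of cholinergic and medial ganglionic neurons, followed the cholinergic area. It stood there at 44.1, 134, 64.6 and 60.6 CPM in sets 1 to 4, ratios of 8.64, 12.4, 12.6 and 11.1 to the other spots. Set 2 was the highest here and in the hypothalamic area as well, where Lhx8 stood at 50.4 CPM against 3.07 to 5.91 CPM in the other sets. Of the 268 hypothalamic spots of set 2, 191 were cluster 20, in which the other sets had none, and Lhx8 stood at 61.3 CPM in that cluster. In the striatal area, where scattered cholinergic interneurons lie, it stood at 8.26, 14.2, 10.8 and 9.72 CPM, against 0.0520 to 0.630 CPM in the upper cortical area.

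Lhx6, a factor of interneurons from the medial ganglionic eminence, had its highest median in the same area, at 29.0, 104, 64.0 and 64.2 CPM in sets 1 to 4. It was not called there, because the ratio in set 1 was 1.61. In cluster 14 it was called, with 62.6, 67.5 and 54.5 CPM in sets 1, 3 and 4. Thalamic spots held 1.01 and 1.30 CPM of Lhx6, against 19.96 and 27.3 CPM elsewhere in those sets.

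Lhx5 was higher in both the cholinergic and hypothalamic areas. Its levels were 30.04, 15.2, 25.1 and 35.1 CPM in the cholinergic area and 11.1, 34.5, 9.35 and 20.5 CPM in the hypothalamic area of sets 1 to 4. Set 2 was thus lowest in one area and highest in the other. Its hypothalamic level came mostly from cluster 20, which the other sets lack, with 335 counts (45.8 CPM). In cluster 8 of set 2 Lhx5 had 5 counts (1.93 CPM). Lhx1, its close relative, was called in the ventricle lining, but on 15, 3, 19 and 7 counts. In the lateral septal area Lhx1 had 185 counts in set 3 (16.8 CPM, a ratio of 27.5) and 1 count in set 2, so no single statement holds for that area.

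Lhx2, a selector gene of the cortex, was higher in the upper cortical area. It stood at 125, 147, 121 and 141 CPM in the upper cortical area, against 46.4 to 58.4 CPM elsewhere. In the deep cortical area it stood at 45.9, 51.6, 44.5 and 66.6 CPM, with ratios of 0.678 to 1.05, so the 2 cortical areas differed. In the meningeal area Lhx2 stood at 172, 197, 194 and 183 CPM. Meningeal spots also carried 2 of 6 upper cortical markers at 2-fold or more in every set, and the part of cortical tissue in the Lhx2 and Emx2 calls was not tested. The lowest median was in cluster 14, at 6.07 CPM. With areas from marker scores, the median difference of Lhx2 in the meningeal area was 0.91 and its call was lost.

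Dlx genes, which drive the formation of GABA neurons from the ganglionic eminences, split into 2 pairs that match their places in the genome. Dlx5 stood at 71.6, 55.6, 73.2 and 59.6 CPM in the striatal area of sets 1 to 4, against 19.95, 20.7, 27.9 and 15.9 CPM elsewhere. Dlx6 stood at 67.7, 99.95, 58.1 and 135 CPM there, with ratios from 3.0 to 5.12. Both were thus higher in the striatum in every set.

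Dlx1 and Dlx2 did the opposite. Dlx1 stood at 1.67, 3.87, 1.96 and 5.83 CPM in the striatal area, against 19.0, 37.0, 27.3 and 40.5 CPM elsewhere. Dlx2 stood at 2.1, 4.86, 1.88 and 5.10 CPM there, against 9.07, 15.3, 7.77 and 18.3 CPM elsewhere. All 4 sets placed these 2 genes below, and Dlx5 and Dlx6 above, the other spots of the section.

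The pairs met in the lateral septal area, where Dlx1 stood at 124 and 76.5 CPM and Dlx6 at 142 and 52.6 CPM in sets 2 and 3. Dlx5 fell just short of the call there, with ratios of 2.33 and 1.97. In the hypothalamic area Dlx1 stood at 34.8, 73.0, 58.6 and 101 CPM, ratios of 2.71 to 4.03. This area pools 3 clusters, and in cluster 8, which had 3 of 8 hypothalamic markers, Dlx1 stood at 20.5, 14.6, 18.8 and 43.6 CPM, below the other spots in sets 2 and 3. Thalamic levels of Dlx1, Dlx2, Dlx5 and Dlx6 all lay between 0.852 and 2.24 CPM. In cluster 22 Dlx2 stood at 25.9, 78.6, 9.98 and 122 CPM in sets 1 to 4, against 7.40, 11.95, 6.50 and 15.55 CPM in the other spots. It was thus above them in each set, but by unlike amounts, and it was not called.

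Emx1, a selector gene of the dorsal telencephalon that stays on in cortical excitatory neurons, was high in both cortical areas. It stood at 79.2, 78.6, 74.1 and 83.4 CPM in the upper and 60.1, 56.1, 55.6 and 61.6 CPM in the deep cortical area of sets 1 to 4, and the levels of the 2 areas did not overlap. In the claustral area it stood at 36.1, 40.5, 39.1 and 41.4 CPM, below both. It was under 4 CPM in the striatal, lateral septal, cholinergic, hypothalamic and thalamic areas of every set compared. The deep cortical call was lost without set 2 or set 3, with marker scores and with a pseudocount of 5 CPM, where the median difference was 1.13, 1.37, 0.93 and 1.17.

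Emx2 was higher in the meningeal area, at 29.9, 16.9, 34.0 and 18.8 CPM, than elsewhere, at 8.97, 6.52, 10.7 and 5.61 CPM. Emx2 lost this call with marker scores and with a pseudocount of 5 CPM, at a median difference of 0.89 and 1.24 against 1.58. Its lowest level was in the thalamic area, at 1.01 CPM in set 1 and 0.280 CPM, from 3 counts, in set 4. Otx1, which is known from deep cortical layers, stood at 16.9, 12.7, 13.3 and 18.0 CPM in the deep cortical area and at 3.07, 3.95, 2.95 and 4.25 CPM in the upper one. The 2 areas did not overlap for Otx1 in any set. The median difference in the deep area was 1.77, and 1.25 or 1.13 with the call lost when set 2 or set 3 was left out.

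Otx2, in contrast, was highest in the choroid plexus. It stood there at 138 CPM in set 1 and 86.7 CPM in set 3, against 1.90 and 1.10 CPM elsewhere, ratios of 72.9 (64.0 to 83.2) and 78.6 (65.4 to 94.7). The 27 choroid plexus spots of set 4, too few for the call, held 45.9 CPM. Clustering without set 3 gave a median difference of 3.25, against 5.49, with the call lost. In the ventricle lining it stood at 23.9, 7.12, 21.0 and 9.73 CPM in sets 1 to 4, ratios of 3.7 to 7.17. In the claustral area Otx2 had 1, 0, 0 and 0 counts in sets 1 to 4. The other spots of sets 2 and 4 held only 1.11 and 1.61 CPM, so its lower call there is near the floor. Cluster 6, at 0.153, 0.169 and 0.0581 CPM of Otx2 in sets 1 to 3, was not called.

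Six3, a factor of the anterior forebrain and of striatal projection neurons, stood at 137, 272, 142 and 211 CPM in the striatal area of sets 1 to 4, ratios of 2.7, 5.18, 4.06 and 2.0. It was just under the call in set 4. In cluster 13 Six3 stood at 474 CPM in set 1 and 862 CPM in set 4 but at 118 and 51.8 CPM in sets 2 and 3. The cluster had 134 and 217 spots in sets 1 and 4 and 45 and 37 in sets 2 and 3. In the upper cortical area Six3 was at 0.312, 1.37, 0.983 and 2.28 CPM, against 67.0 to 139 CPM in the other spots.

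Six6, known from the hypothalamus and eye, stood at 25.6, 5.09, 10.5 and 14.97 CPM in the ventricle lining and at 5.49, 1.70, 1.15 and 5.17 CPM in the hypothalamic area of sets 1 to 4. The ventricle lining values rest on 59, 5, 19 and 20 counts, out of 222, 71, 93 and 154 in whole sections. The whole-section mean of Six6 was 1.04 CPM, just above the filter. These counts are part of that mean, so its ventricle lining call is not independent of the filter. Six5 was higher in the ventricle lining, at 14.8, 27.5, 21.0 and 18.0 CPM, and in the choroid plexus, at 14.5 and 16.7 CPM.

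Irx5, of the Iroquois family, was higher in the ventricle lining. It stood there at 19.1, 15.3, 17.6 and 30.7 CPM in sets 1 to 4, against 0.771, 0.957, 0.539 and 2.01 CPM elsewhere, with ratios of 24.8, 15.95, 32.8 and 15.2. The counts behind these levels were 44, 15, 32 and 41. Irx1 and Irx2 were called higher in the thalamic area. Irx1 stood at 13.7 and 28.9 CPM in the thalamic area of sets 1 and 4, and at 13.5, 15.6, 13.3 and 23.8 CPM in the cholinergic area of sets 1 to 4. Irx2 stood at 2.71 and 5.40 CPM in the thalamic area, from 35 and 58 counts. In the ventricle lining Irx1 stood at 19.1, 4.07, 15.99 and 54.6 CPM in sets 1 to 4, above the other spots except in set 2, which had 4 counts. Irx2 stood there at 21.7 CPM in set 4 but had 5, 0 and 2 counts in sets 1 to 3, so neither was called.

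**Figure D3:**
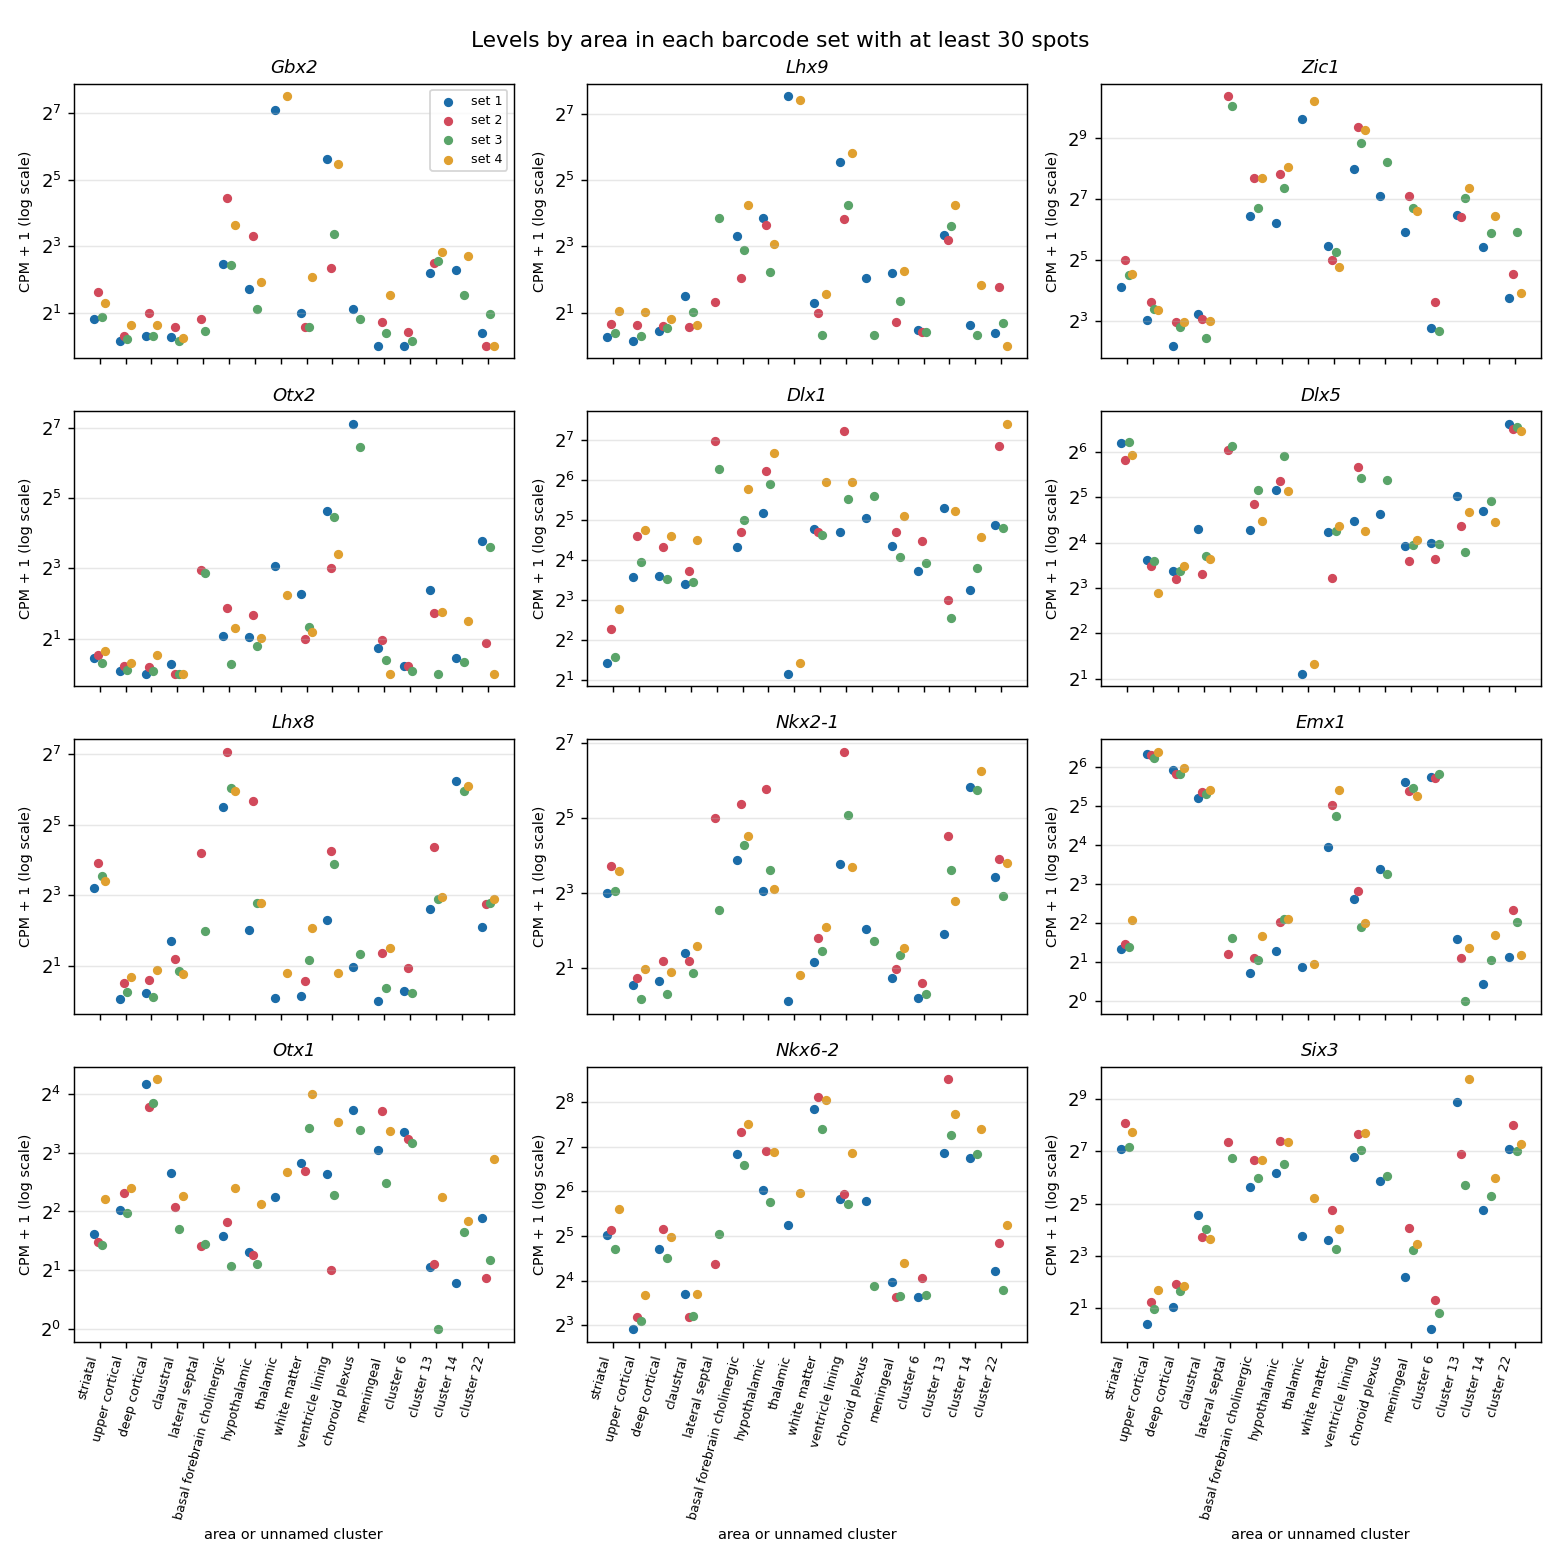
Levels of 12 genes, 1 panel each, in 12 areas and 4 unnamed clusters, as CPM + 1 on a log scale. Each point is 1 barcode set with at least 30 spots of the area, coloured by set. Gbx2 and Lhx9 peak in the thalamic area, Otx2 in the choroid plexus, Emx1 in the 2 cortical areas, and Six3 in cluster 13 of sets 1 and 4.

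Of the Nkx genes, Nkx2-2 and Nkx6-2 followed white matter. Both are known in oligodendrocytes, the cells that make myelin, and their precursors. Nkx6-2 stood at 230.3, 277, 168 and 265 CPM in the white matter area of sets 1 to 4, ratios of 5.43, 5.98, 5.84 and 3.64. Nkx2-2 stood at 70.6, 103, 62.1 and 97.8 CPM, ratios of 3.9 to 5.2. In cluster 13 Nkx6-2 stood at 116, 363, 154 and 212 CPM, with set 2 again the highest. Nkx6-2 was also higher in the cholinergic area, at 113, 161, 95.4 and 181 CPM. In that area 0 of 8 white matter markers were 2-fold higher in every set, a count that says nothing of smaller or partial rises, and the part of myelinating cells was not tested.

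Nkx2-1, the selector gene of the medial ganglionic eminence and its derivatives, had its highest median in cluster 14. It stood there at 55.5, 52.7 and 75.3 CPM in sets 1, 3 and 4, ratios of 14.1, 10.9 and 13.4. In the cholinergic area it stood at 13.6, 40.2, 18.5 and 21.9 CPM, ratios of 2.63 to 3.57, and its call there was lost without set 3, at a median difference of 0.94. Hypothalamic levels differed more between sets, at 7.34, 53.3, 11.2 and 7.68 CPM. In set 2, 484 of the counts lay in cluster 20 (66.2 CPM), which the other sets lack. The thalamic area held 0.0775 and 0.745 CPM, from 1 and 8 counts. Lhx6, Lhx8, Gbx1 and Nkx2-1 thus shared cluster 14.

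Nkx2-9 was low. It had a highest median of 4.81 CPM, in cluster 13, and stood at 2.69, 6.40, 2.24 and 13.6 CPM in the white matter.

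Pou3f1, a POU factor known from cortical and striatal neurons, stood at 56.9, 192, 57.6 and 85.6 CPM in the striatal area of sets 1 to 4, ratios of 3.1, 3.6, 2.78 and 2.21. Pou3f4, a factor of the ventral forebrain, stood at 46.9, 54.4, 47.7 and 68.2 CPM there, and at 113, 126, 101 and 166 CPM in cluster 22, ratios of 5.22 to 7.12. Pou3f4 levels were thus closer between sets than those of Pou3f1. Pou3f2, an upper-layer cortical factor, stood at 73.7, 147, 100 and 138 CPM in the upper cortical area, ratios of 2.4 to 2.82.

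The remaining POU genes were higher in no named area under the call. Pou3f3 had medians from 50.4 CPM in the thalamic area to 247 CPM in the meningeal area, and Pou6f1 from 35.1 CPM in the thalamic area to 139 CPM in the upper cortical area. Pou2f1, a widely expressed factor, had medians from 17.3 CPM in cluster 6 to 50.1 CPM in the thalamic area, where ratios of 2.0 and 2.19 fell just short of the call in set 1. Pou2f2 had medians from 1.204 CPM in the choroid plexus to 9.73 CPM in the ventricle lining, and Pou5f2 from 4.86 CPM in the thalamic area to 10.4 CPM in cluster 22.

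Pou4f1, known from the medial habenula, showed 1 exception in 1 set. In the ventricle lining of set 4 it stood at 73.3 CPM (98 counts in 60 spots), a ratio of 32.2 (25 to 41.1), while sets 1, 2 and 3 had 0, 1 and 0 counts there. In the cholinergic area of set 4 it stood at 11.3 CPM, against 0.223, 0.916 and 0.439 CPM in sets 1 to 3. Whole sections held 0.361, 0.784, 0.327 and 3.33 CPM.

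Genes that lie next to each other, with no gene between them in RefSeq (GRCm38.p6), were compared over the 56 points of area or cluster and barcode set with at least 30 spots. Pearson's r of log2(CPM + 1) was 0.93 for Zic5 and Zic2, 0.92 for Zic1 and Zic4, 0.90 for Dlx1 and Dlx2, 0.87 for Dlx6 and Dlx5, 0.84 for Irx1 and Irx2 and 0.46 for Nkx2-1 and Nkx2-9. The spans of Zic1 and Zic4 overlap. Between the 2 Dlx pairs r was lower, from 0.44 to 0.59. The 6 pairs among Zic1, Zic2, Zic4 and Zic5 had a median r of 0.93, against 0.16 over all 861 pairs of the 42 genes, which ran from -0.83 to 0.94. The points share libraries and depth, so r is a description. The probe set is not given in the sources used here, and counts shared between close relatives were not tested.

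**Figure D4:**
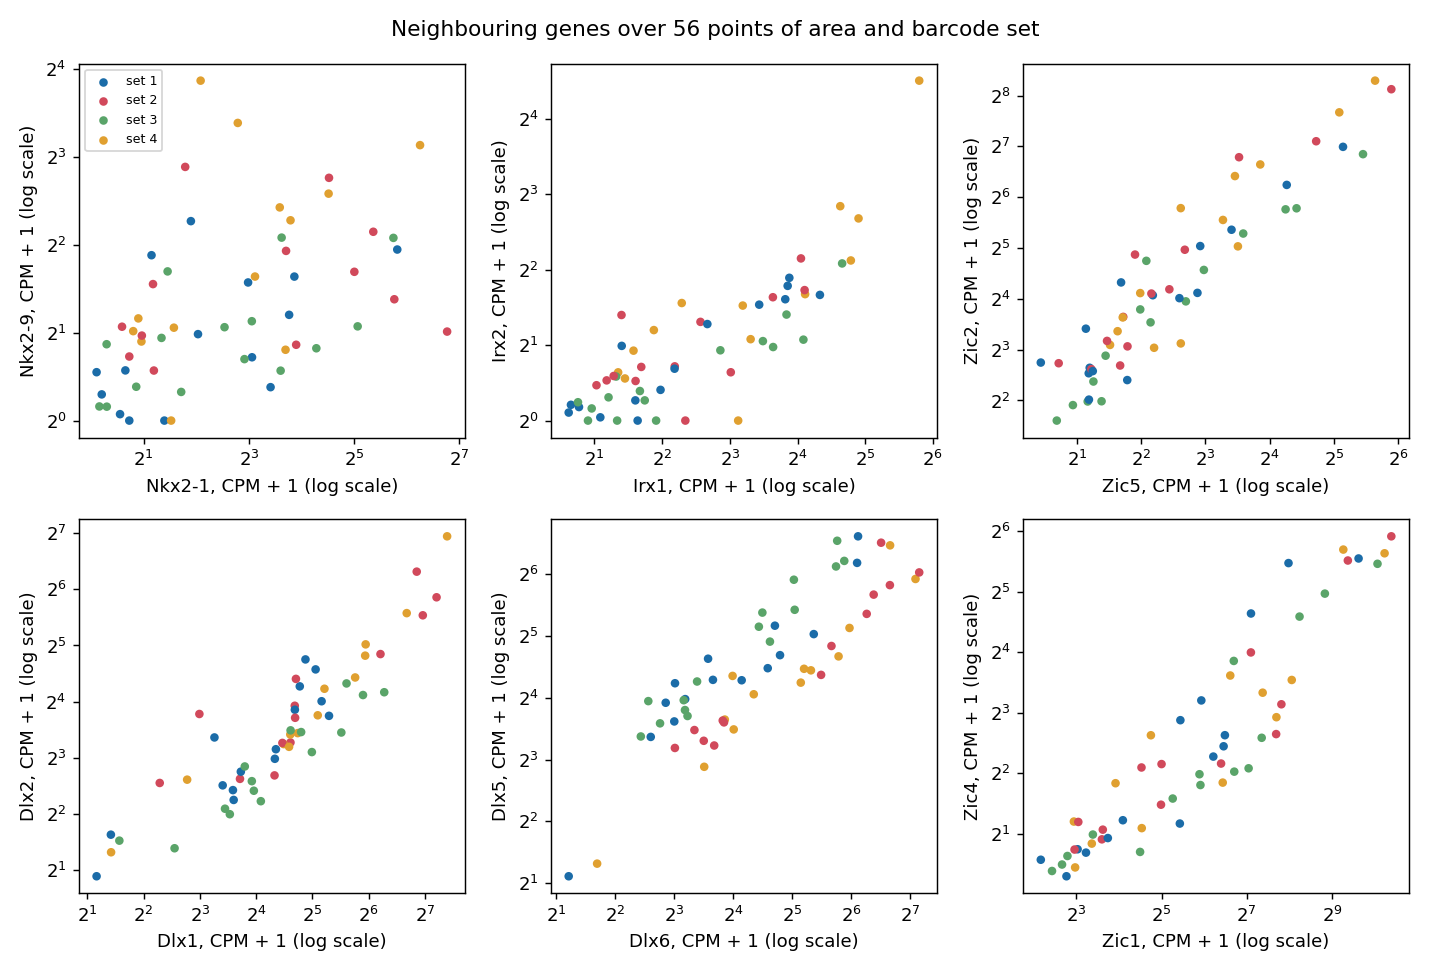
Each panel sets a gene against its genome neighbour over 56 points, as CPM + 1 on log scales. A point is 1 area or cluster in 1 barcode set, coloured by set. Both Dlx pairs and both Zic pairs lie close to a line (r of 0.87 to 0.93), while Nkx2-1 and Nkx2-9 scatter (r of 0.46).

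For the 6 genes with the largest ratio of their highest to their second highest area, the genes outside the list with the most similar pattern were sought by the same r over 56 points. Otx2 (7.34 times its second area) was most like Smim22, Cldn2 and Steap1, with r of 0.92, 0.91 and 0.89. Gbx2 (6.07 times) was most like Tcf7l2, Foxb1 and Kcnj5, with r of 0.86, 0.84 and 0.83. Lhx9 (5.52 times) was most like Calb2, Pcbd1 and Zap70, at 0.89, 0.86 and 0.86. Cldn2 and Tcf7l2 were among the markers that named the choroid plexus and thalamic areas. Irx5 (3.08 times) was most like Dnah3, Eppk1 and Ribc2, at 0.91 each. Six6 (3.7 times) was most like Sim1, Cpa4 and Med31, at 0.78, 0.77 and 0.77, and Nkx2-1 (2.46 times) most like Ncmap, Ptch1 and Zfp516, at 0.81, 0.81 and 0.80.

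Of 47 partner and related regional factors listed from textbook knowledge, 46 were in the table, 43 were compared and 28 were higher in at least 1 named area (26.8% of all genes were). The striatal area had 8 of 43 higher and 6 lower, where 2.79% and 6.24% of all genes were. Meis2, a TALE factor of the striatum, stood there at 487, 279, 413 and 252 CPM in sets 1 to 4, against 95.3, 58.8, 86.0 and 43.1 CPM elsewhere. Lmo2, Dach1, Gli3, Meis1, Pbx3, Sp9 and Ebf1 were the others. The lateral septal area had 6 higher, where 1.67% of all genes were: Isl1, Pax6, Vax1, Sp8, Sp9 and Eomes. Eomes differed there between sets, at 7.08 CPM in set 2 and 113 CPM in set 3, the set in which Lhx1 was also high.

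In the deep cortical area 3 of 43 partners were higher, Tbr1 and Satb1 among them, and 11 lower, where 0.951% and 3.3% of all genes were. In the upper cortical area 1 was higher and 8 lower, where 1.35% and 4.47% of all genes were. Tbr1, a factor of deep-layer neurons, stood at 114, 178, 126 and 176 CPM in the deep area, against 19.2, 45.0, 31.3 and 36.5 CPM elsewhere. The thalamic area had 3 higher (Gli1, Glis3 and Tshz2) and 16 lower, where 2.66% and 5.09% of all genes were. Ventricle lining spots had 6 higher (Gli1, Glis3, Pbx4, Tgif1, Tgif2 and Vax1) and 4 lower, where 6.23% and 2.88% of all genes were. Choroid plexus spots had 6 higher (Eya4, Glis2, Glis3, Tgif1, Tgif2 and Gsx2) and 8 lower, where 11.2% and 16.0% of all genes were. Lmo3 was higher in the claustral area, Pax6 in the white matter, and Eya1 and Eya2 in the meningeal area. Of the 43, 0 were higher in the cholinergic or hypothalamic area, where only 0.762% and 1.77% of all genes were, so these counts are near the background.

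Over whole sections, 17 of the 42 genes had at least a 2-fold range over the 4 barcode sets, where 11.9% of all genes did. They were Lhx8, Lhx9, Dlx1, Dlx2, Six3, Otx2, Gbx1, Gbx2, Irx1, Irx2, Zic1, Zic2, Nkx2-1, Nkx2-9, Nkx6-2, Pou3f1 and Pou4f1. The median range was 0.92 on the log2 scale over the 42 genes and 0.50 over all genes. Without set 4 the count was 6. The sets hold different shares of each area, so levels were also computed for 1 common mix of the 11 areas or clusters with at least 30 spots in every set. This mix leaves out the thalamic, lateral septal and choroid plexus areas and clusters 6 and 14. The areas where Lhx9, Gbx2, Otx2 and Zic1 were highest are thus not in it, so their levels in the mix fall by construction. With the common mix, 13 genes had a 2-fold range, where 9.4% of all genes did, and the median range was 0.78 against 0.47.

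Some genes lost the 2-fold range in the common mix. Lhx9 stood at 17.3, 2.00, 2.22 and 24.8 CPM over whole sections of sets 1 to 4 and at 4.01, 2.81, 1.97 and 4.64 CPM in the common mix. Otx2 stood at 6.69, 1.05, 3.15 and 1.51 CPM over whole sections and at 1.25, 0.939, 0.794 and 0.781 CPM in the mix. Six3, Irx1, Irx2 and Nkx6-2 also lost the 2-fold range, and Dlx6 and Six5 gained it.

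Other genes kept their range in the mix. Gbx2, in this mix without the thalamic area, stood at 1.81, 3.88, 1.12 and 2.87 CPM in sets 1 to 4. Zic1 and Zic2 kept a 2-fold range as well. Pou3f1 stood at 25.7, 87.8, 28.2 and 45.1 CPM over whole sections and at 27.0, 81.1, 27.5 and 54.9 CPM in the mix, with set 2 the highest in both. Dlx2 stood at 7.75, 12.7, 6.57 and 16.5 CPM and at 6.87, 12.9, 5.72 and 18.2 CPM, with sets 2 and 4 above sets 1 and 3. Dlx1 had that order of sets in the striatal area, at 1.67 and 1.96 CPM in sets 1 and 3 and 3.87 and 5.83 CPM in sets 2 and 4. In the cholinergic area it did not, with 19.1, 24.7, 30.8 and 53.1 CPM of Dlx1 in sets 1 to 4. Lhx8 and Nkx2-1 were highest in set 2, at 22.4 and 16.8 CPM in the mix against at most 9.18 and 6.71 CPM in the other sets. The mix does not even out the clusters within an area. Cluster 20 of the hypothalamic area, found only in set 2, held 61.3 CPM of Lhx8 and 66.2 CPM of Nkx2-1. Its part in the mix was not tested. In the cholinergic area both genes were also highest in set 2. Inside that area 24 of the 42 genes had a 2-fold range over the sets, where 14.5% of all genes did. Whether that area holds the same tissue in each set was not tested.

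Sets 2 and 4, in which Dlx1, Dlx2, Dlx6, Six3 and Pou3f1 were higher, also had the lower counts per spot, the higher olfactory receptor background and the higher Celsr3 level. The part of each in these differences was not tested. Not all genes had this order of sets. Emx2 went the other way, at 9.33, 6.82, 11.2 and 5.84 CPM over whole sections of sets 1 to 4. Dlx5 was highest in set 3 and lowest in set 4, at 37.1 and 21.9 CPM. Subtracting the olfactory receptor level, 0.123 to 0.498 CPM, left 17 genes with a 2-fold range. The genes named here stand far above that level, so the subtraction could hardly change their range and cannot weigh the part of background. Pou2f1 had the narrowest range, from 24.8 to 27.0 CPM over whole sections.

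**Figure D5:**
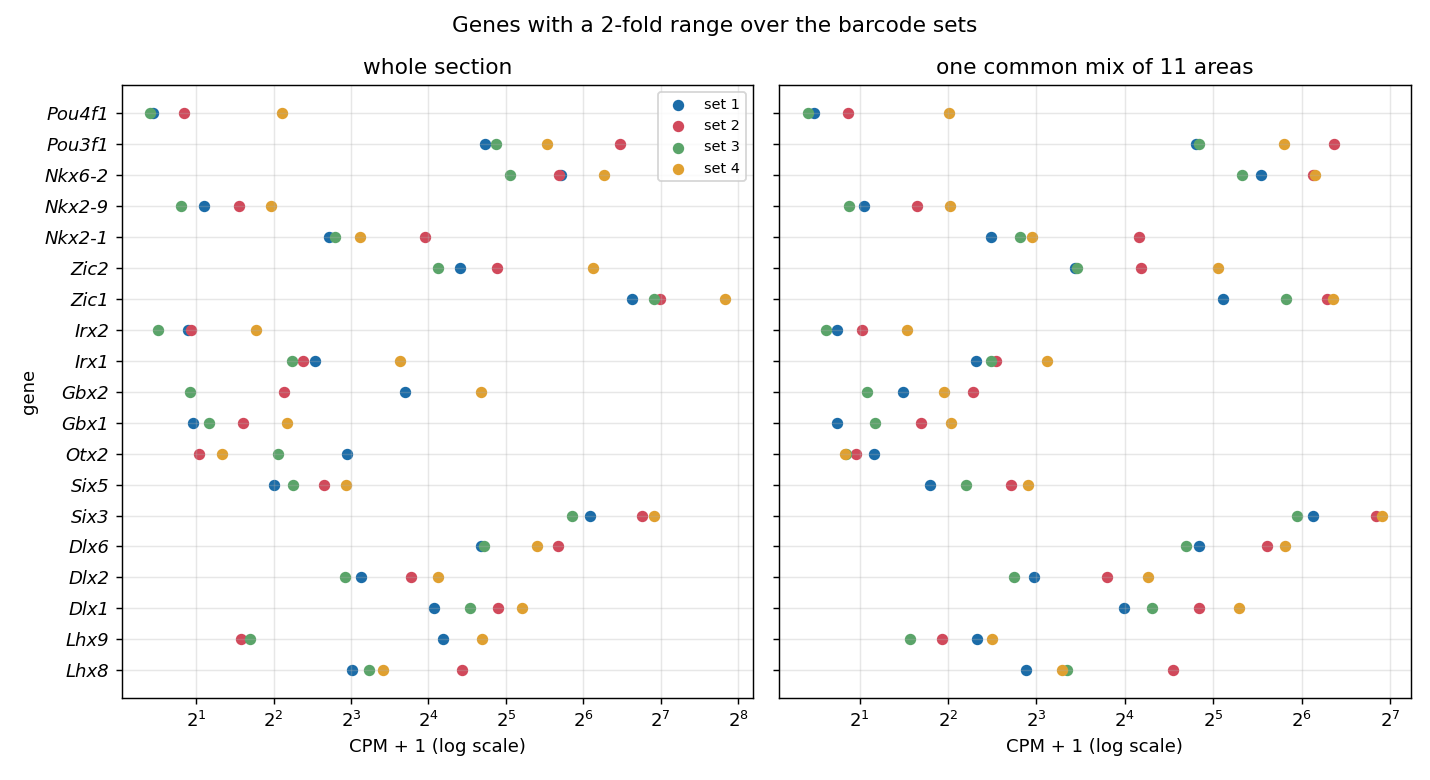
Levels of the 19 homeobox genes and Zic genes with a 2-fold range over the barcode sets in whole sections or in the common mix of areas, as CPM + 1 on a log scale. Points are barcode sets 1 to 4. Lhx9, Otx2 and Gbx2 spread widely over whole sections (left) and less in the common mix (right), while Pou3f1, Dlx1 and Dlx2 keep their spread. The mix leaves out the thalamic, lateral septal and choroid plexus areas and clusters 6 and 14.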

How the data were processed

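Coronal brain sections of 4 mice were measured in spots, and the authors deposited 1 table of whole-number counts per gene and spot. Space Ranger and Seurat are named in the submitters' processing notes, and the genome build, probe set and filters are not given in the sources used here. The deposited counts were summed per area and barcode set and scaled to CPM over all counts of those spots. Spots under 500 counts (1 of 12602) were left out. Spots were clustered by Leiden (scanpy 1.11.5, leidenalg 0.10.2) on values centred per barcode set, without the homeobox and Zic genes, and clusters were named by markers listed outside those genes. Doublet calling was not run, since spots hold several cells. Of the 4 barcode sets, 0 could be assigned to a sample, so no test across samples was possible, and count models were not run. R 4.3.3 with edgeR 4.0.16 gave TMM factors for 1 alternative. The named genes are members of the symbol rule, and the 6 with the largest ratio of first to second area were set beside the genes most like them. Members and lists were chosen with earlier results of these data known. The scripts were tested on simulated data. Depth limits low genes: a set holds 90752475 to 174761560 counts. Promoter windows are from RefSeq GRCm38.p6. Alternatives were other clustering settings, scaling, filters, pseudocounts and leaving out each set. Some genes of the lists are counted but not reported here by name.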

Additional observations from a re-analysis of the deposited data

How the results depend on the processing

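No paired analysis was possible because 0 of the 4 barcode sets could be tied to a sample. Each setting was tried with the rest kept, and leaving out a set re-clusters the others. Over 154 calls of a gene in an area, 1826 alternative values kept the 2-fold call in every set compared. A further 226 lost the call with the median in the same direction, and 25 had a reversed median. Of the counts of called genes, 320 stayed within 1.5 times and 47 moved.

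Reversed median log2 differences, all in areas where the gene was called lower, were as follows. In the choroid plexus, resolution 0.4 gave 0.63 (Lhx5), 0.64 (Lhx9) and 0.067 (Pou2f2), and a minimum of 2000 counts gave 0.87, 0.87 and 0.12. Leaving out a set gave -1.35 to 1.16 for Lhx5, -2.46 to 1.28 for Lhx9 and -1.05 to 0.70 for Pou2f2. In white matter, no centring gave 0.33 (Lhx8) and 0.79 (Nkx2-1), a minimum of 2000 counts gave 0.91 (Lhx5), 0.021 (Lhx8) and 0.002 (Nkx2-1), and marker scores gave 0.39 (Lhx5), 0.66 (Lhx8) and 0.96 (Nkx2-1). Leaving out a set gave -1.63 to 1.501 for Lhx5 and -1.34 to 0.078 for Nkx2-1. Joining cluster 13 to white matter, chosen after seeing the data, gave Six3 0.57. The cause was not tested.

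With a pseudocount of 5 CPM, which lowers differences of low genes by construction, higher genes numbered 3 (cholinergic), 5 (choroid plexus), 1 (deep cortical), 1 (hypothalamic), 1 (meningeal) and 7 (ventricle lining). Lower genes numbered 3 (choroid plexus), 4 (claustral), 6 (deep cortical), 3 (meningeal), 4 (striatal), 8 (upper cortical), 1 (ventricle lining) and 4 (white matter), and 8 genes had a 2-fold range over sets. With marker scores, higher genes numbered 1 (deep cortical), 0 (lateral septal) and 1 (meningeal), and lower genes 6 (hypothalamic) and 0 (lateral septal, meningeal, ventricle lining and white matter). No centring gave 6 higher and 1 lower in the ventricle lining, 6 lower in the hypothalamic area and 1 lower in white matter. Lower genes were 1 in the choroid plexus and 0 in white matter with a minimum of 2000 counts, 1 and 2 at resolution 0.4, 2 in white matter at resolution 1.2 and 1 with cluster 13 joined. No filter gave 67 genes compared. Leaving out a set gave 0 to 3 higher in the deep cortical area, 3 to 5 higher and 3 to 6 lower in the hypothalamic area, 2 to 3 lower in the choroid plexus, 1 to 6 lower in white matter and 6 to 15 genes with a 2-fold range. For these the cause was not tested.

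No value was given at resolution 0.4 by the upper cortical, ventricle lining and meningeal areas, with no centring by the deep cortical and claustral areas, with a minimum of 2000 counts by the ventricle lining, and with at least 100 spots by the ventricle lining and choroid plexus. Leaving out a set left no value for the claustral area (set 1), the thalamic area (1 or 4), the lateral septal area (2 or 3) and the ventricle lining (1, 3 or 4). Subtracting the olfactory receptor level, also chosen after seeing the data, kept 17 genes with a 2-fold range. Over whole sections, genes under 1 CPM lie near the background of the assay, though Six2 and Dlx4 stood above it in an area. Area values under about 10 counts have wide intervals.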
